A study of Mus musculus with 21 samples.

Results

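Genes of the urea cycle and of amino acid breakdown were followed in mouse hepatocytes and in the cultured progenitor-like cells (CLiPs) made from them. The genes were taken from a list of 55 names, by the gene name in the scanner files, and 54 of them were found among the 37074 gene names of the array. The remaining name, Gstz1x, matched none. The 54 genes fell into 9 branches: the urea cycle (7 genes), aminotransfer and glutamate (7), tyrosine (3), tryptophan (6), histidine (3), methionine and sulfur (10), glycine, serine and threonine (8), branched-chain amino acids (7), and proline and lysine (3). All cells came from female C57BL/6 mice, whose age the labels do not give. The 7 groups of 3 one-colour arrays were fresh hepatocytes and 6 groups of CLiPs, at passage 1 (P1) and at passage 11 or 12 (late). At each passage the CLiPs were profiled at day 0, before hepatic induction, and at day 8 with induction or without it. Hepatic induction was culture with oncostatin M, an interleukin-6-type cytokine, and dexamethasone, a synthetic glucocorticoid. Late replicate 3 was passage 11 in each late group and the other late replicates were passage 12. The labels do not say whether replicates were separate animals or cultures, and p-values here reflect only how far such samples spread.

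Hepatocytes are the main site of amino acid breakdown. The nitrogen released is carried as glutamate, aspartate and ammonia into the urea cycle, in which Nags makes the activator of Cps1, Cps1 and Otc act in mitochondria, and Ass1, Asl and Arg1 act in the cytosol. Methionine is turned into S-adenosylmethionine and then homocysteine, which Bhmt remethylates with betaine or Cbs and Cth pass on to cysteine. Glucocorticoids are known inducers of several urea-cycle and aminotransferase genes in liver.

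Levels are log2 signals relative to the 75th percentile of the probes on the same array, so a level of 0 is that percentile. A level belongs to 1 probe, and levels of different genes were not compared. Testing required 1 group in which all 3 arrays of the gene's probe were well above background. "Rose" and "fell" are used of changes of at least 2-fold with an adjusted p from limma under 0.05. A probe is called dim in a group where no array of the 3 was well above background. Where 1 side was dim, "at least" stands before the fold, and the dim signal on each array counts as no less than that array's faintest signal that was well above background. Where both groups were dim, no fold is given. In bulk RNA, fewer cells expressing a gene and less RNA of it per cell cannot be told apart.

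Of the 54 genes, 52 were well above background on all fresh arrays, and Arg2 and Tdh were dim there. At P1 day 0 the number was 38, and 12 were dim. It was 42 in P1 uninduced cells and 51 in P1 induced cells, in which Otc and Arg2 alone were dim. The late groups had 36 at day 0, 37 without induction and 40 with it. Arg2 was well above background on all arrays of no group, so it was not tested. In all, 35 of the 54 genes were well above background on all 21 arrays.

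Arrays differed in brightness: the 75th percentile lay at a signal of 291 to 332 (fresh), 466 to 789 (P1) or 881 to 1241 (late). The late arrays came from another scanner and software version than the fresh and P1 arrays, so in direct comparisons between these sets passage and scanner cannot be told apart. All 6 hepatocyte markers (Alb, Ttr, Apoa1, Apob, Serpina1a and Hnf4a) were well above background on fresh and P1 arrays. Their summed level, on a linear scale with the 75th percentile at 1, was 3680 to 4030 in fresh cells, 989 to 1260 at P1 day 0, 944 to 1040 in P1 uninduced and 1430 to 1720 in P1 induced cells. In late cells it was 83.9 to 203 at day 0, 346 to 462 uninduced and 435 to 779 induced. Fresh cells also held signal from 6 of 6 endothelial markers (summed level 10.7 to 17.8), of which Kdr, Cdh5 and Lyve1 were dim in every CLiP group. The summed level of 6 biliary and progenitor markers was 1.02 to 1.79 in fresh cells, where Krt7, Krt19, Epcam and Cd24a were dim, 437 to 466 at P1 day 0, 473 to 507 in P1 uninduced and 693 to 814 in P1 induced cells. That of 6 Kupffer cell markers was 8.22 to 27.6 in fresh cells, then 2.79 to 3.15, 15.7 to 22 and 7.26 to 9.55 in the same P1 groups, where Clec4f, Cd5l, Vsig4 and Timd4 were dim. The summed level of 6 cell-cycle genes was 86.4 to 101 at P1 day 0, 5.89 to 8.86 without induction and 1.99 to 3.21 with it. The part of these markers in the changes below was not tested. The induced late replicate 3 was alone on its slide and was also the only passage 11 array of its group, so slide and passage cannot be told apart there. It lay above the other induced late replicates in several of the genes described here.

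Promoter sequence is shown for 3 neighbouring genes that rose together on P1 induction, Bhmt, Bhmt2 and Dmgdh, and for Otc, which stayed dim in every CLiP group. Of the 54 genes, 43 had a promoter window in the RefSeq table (GRCm38.p6). Bhmt, Bhmt2 and Dmgdh are consecutive protein-coding genes on chromosome 13, and 133 bases separate the divergent starts of Dmgdh and Bhmt2. The 250 bases before each annotated start are printed on the gene's own strand, with capitals for a match to the HNF4-type motif CAAAGNNCA.
Bhmt, chr13:93637759-93638008, minus strand: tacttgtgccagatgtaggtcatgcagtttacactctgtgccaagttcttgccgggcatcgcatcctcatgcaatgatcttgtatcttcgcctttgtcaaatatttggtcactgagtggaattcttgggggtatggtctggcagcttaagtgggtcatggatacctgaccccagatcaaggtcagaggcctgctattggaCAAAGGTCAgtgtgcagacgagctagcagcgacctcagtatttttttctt
Bhmt2, chr13:93674303-93674552, minus strand: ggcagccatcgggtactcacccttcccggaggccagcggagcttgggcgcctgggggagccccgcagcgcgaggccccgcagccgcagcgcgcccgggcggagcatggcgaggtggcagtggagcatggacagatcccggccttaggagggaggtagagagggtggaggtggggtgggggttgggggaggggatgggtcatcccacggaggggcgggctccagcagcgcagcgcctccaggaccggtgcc
Dmgdh, chr13:93674186-93674435, plus strand: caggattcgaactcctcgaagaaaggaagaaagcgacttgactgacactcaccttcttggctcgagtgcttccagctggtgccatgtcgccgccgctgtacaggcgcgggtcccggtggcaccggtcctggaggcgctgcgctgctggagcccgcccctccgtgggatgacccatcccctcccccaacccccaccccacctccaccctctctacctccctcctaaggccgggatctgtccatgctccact
Otc, chrX:10252055-10252304, plus strand: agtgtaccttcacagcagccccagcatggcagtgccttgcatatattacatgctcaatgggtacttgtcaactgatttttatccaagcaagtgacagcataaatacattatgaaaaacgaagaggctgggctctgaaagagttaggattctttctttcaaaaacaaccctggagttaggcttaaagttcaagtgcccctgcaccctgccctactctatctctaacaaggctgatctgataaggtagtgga
The motif was searched on both strands and was loosened from a stricter form after the sequences had been seen. The Bhmt window held 1 match, CAAAGGTCA, which began 50 bases before the start, and the other 3 windows held none. Among the 27025 genes whose windows were searched, not all of the table, 6.29% had a match, against 7 of the 43 matched genes here (16.3%): Agxt, Agxt2, Ahcy, Bhmt, Ftcd, Haao and Kmo. The C/EBP motif TTGCNNAA was found in 3 of 43 (10.8% of all genes searched), the STAT motif TTCNNNGAA in 2 (8.13%) and an HNF1 motif in 1 (0.44%). A glucocorticoid receptor motif was found in 0 of 43 (0.44% of all genes searched). These are matches of letters in a short window, not binding sites.

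The first comparison asked how these genes differ between fresh hepatocytes and the P1 CLiPs derived from them. RNA of nearly all of the listed genes was lower in P1 CLiPs at day 0. Of 53 genes tested, 50 fell and 1 rose, where 25.2% of all 20631 tested genes fell and 25.4% rose. The median log2 change of the 53 genes was -5.54, or -5.30 with dim genes at their bound, against -0.01 over all tested genes. The gene that rose was Mat2a, the methionine adenosyltransferase found outside the adult liver. Glud1, glutamate dehydrogenase, had a log2 change of -0.76 and Tdh, threonine dehydrogenase, one of 0.11. With dim genes at their bound, the branch medians were -9.67 for tyrosine, -8.98 for the urea cycle, -8.13 for tryptophan, -7.86 for histidine and -6.81 for methionine and sulfur. They were -5.30 for proline and lysine, -3.42 for aminotransfer and glutamate, -3.31 for branched-chain and -2.19 for glycine, serine and threonine genes.

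**Figure D1:**
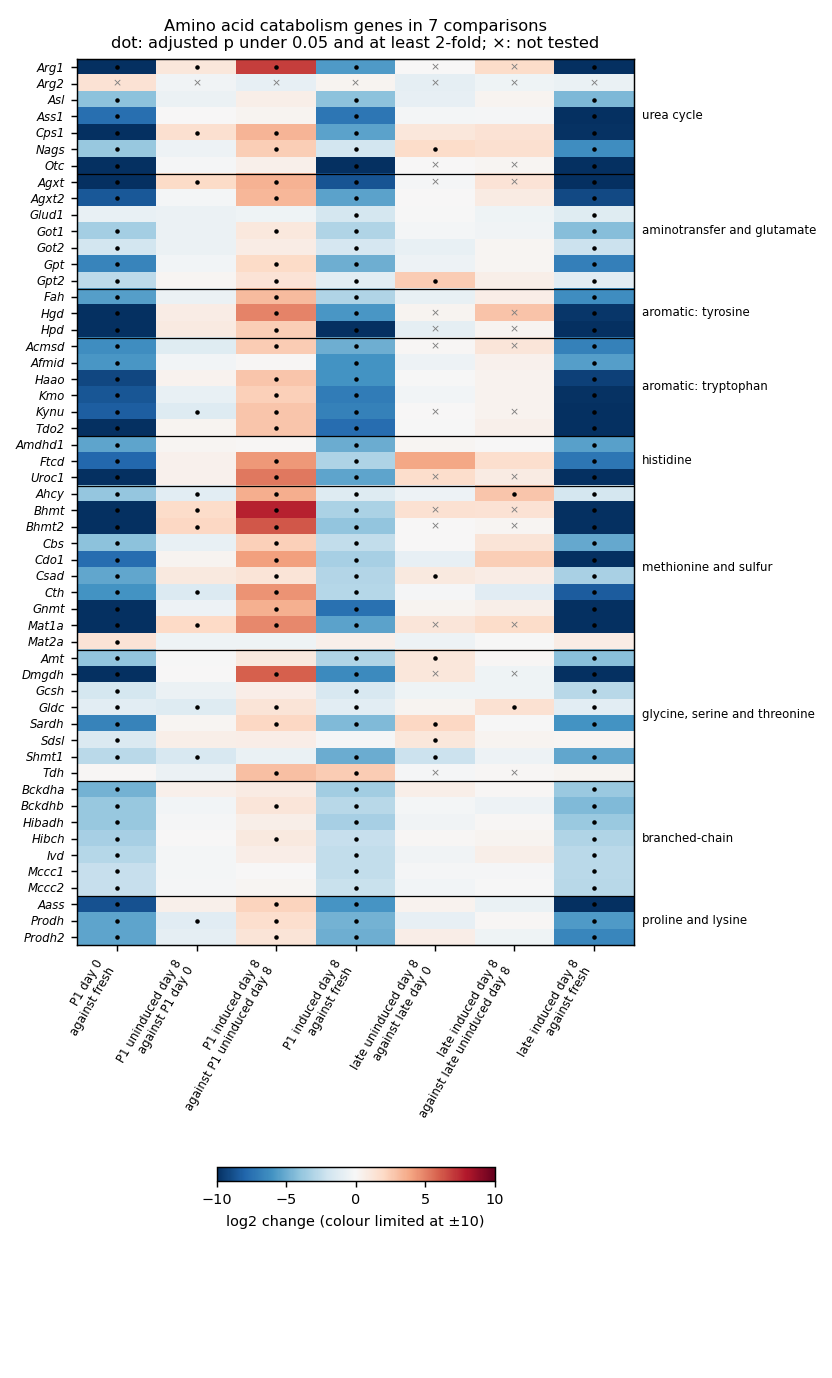
Log2 change of each gene (rows, by branch) in 7 comparisons (columns), coloured from blue (lower) to red (higher), with the colour limited at 10. Dots mark changes past the threshold and crosses genes not tested. The columns against fresh are blue for nearly every gene, the P1 induction column is red in most branches and pale in the branched-chain branch, and the late induction column has 2 dots.

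Over the 8 days without the inducers at P1, 41 of 53 genes did not pass the threshold. Of the 53, 6 rose and 6 fell, larger shares than the 6.28% and 4.86% of all genes. The median change was -0.15. Agxt, Bhmt, Bhmt2, Cps1, Mat1a and Arg1 rose, and Ahcy, Cth, Gldc, Kynu, Prodh and Shmt1 fell. Arg1 and Kynu were dim on all 6 arrays, so the direction of their signals is all that was measured. With the normexp background correction, Agxt (0.49), Arg1, Bhmt2 (0.60), Cps1 (0.88), Mat1a (0.84), Ahcy (-0.94) and Kynu lost their calls. Bhmt alone of these genes remained higher (1.21). Its call in the main fit ended without P1 day 0 replicate 2 (1.28) or P1 uninduced replicate 2 (1.36) or 3 (1.78). Those of Arg1, Ahcy, Cth and Kynu also ended without certain single arrays. With the mean of all probes of a gene, the changes of Prodh (-0.46) and Gldc (-0.95) were under 2-fold. On slide 4 alone the changes of Agxt, Bhmt2, Cps1 and Mat1a still passed the threshold. Slide 5 held 1 array per group, and the changes there were 2.30 for Agxt, 2.21 for Mat1a, 1.60 for Bhmt2, 1.24 for Cps1 and 1.22 for Bhmt.

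Induction at P1 was compared with the same 8 days without inducers, and it raised most of these genes. Of 53 genes, 36 rose and 0 fell, against 9.68% and 9.02% of all genes by limma. At an unadjusted p under 0.05, 3 genes were lower (Glud1, Mat2a and Shmt1). The median log2 change was 2.08, or 1.88 with dim genes at their bound, against 0.05 over all genes. By branch, with dim genes at their bound, 9 of 10 methionine and sulfur genes rose (median 3.84), 3 of 3 tyrosine (3.18), 5 of 6 tryptophan (2.45), 2 of 3 histidine (4.36) and 3 of 3 proline and lysine genes (1.66). Of aminotransfer and glutamate genes 5 of 7 rose (1.39), of urea-cycle genes 3 of 6 (1.51), of glycine, serine and threonine genes 4 of 8 (1.11), and of branched-chain genes 2 of 7 (0.66). Of the 36 genes that rose, 26 were well above background on all 6 arrays.

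P1 induced cells still differed from fresh hepatocytes in nearly all of these genes. Of 53 genes, 50 were lower and 1 was higher, against 18.8% and 20.3% of all genes, with a median log2 change of -3.95. Tdh was the gene that was higher, and it passed the filter for testing only through the P1 induced arrays. Mat2a (0.53) and Sdsl, a serine dehydratase-like gene (-0.15), did not pass the threshold. The branch medians ran from -2.32 for glycine, serine and threonine and -2.46 for branched-chain genes to -6.38 for tryptophan genes. This comparison and that of P1 day 0 share the fresh arrays.

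Late CLiPs at day 0 were lower than P1 CLiPs at day 0 in 21 of 53 genes and higher in 0, against 9.11% and 4.33% of all genes. Of the 21, 6 were dim in both groups (Arg1, Bhmt2, Hgd, Kynu, Mat1a and Uroc1), and scanner and passage cannot be told apart here. With the slide as a block 14 were lower, and Agxt2, Arg1, Bhmt, Ftcd, Hgd, Mat1a and Uroc1 lost their calls. Without inducers, 6 of 40 genes tested rose over 8 days and 1 fell, against 8.19% and 6.37% of all genes. Gpt2, Sardh, Nags, Amt, Sdsl and Csad rose, and Shmt1 fell. Without late day 0 replicate 3, Prodh also fell (-1.10). At an unadjusted p under 0.05, 3 genes were higher at late than at P1 day 0 (Bckdha, Got2 and Hibadh).

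Late induction raised 2 of 40 genes tested and lowered 0, against 2.94% and 3.06% of all genes, with a median log2 change of 0.24. At an unadjusted p under 0.05, 3 genes were lower (Aass, Gcsh and Shmt1). The 2 genes that rose were Ahcy and Gldc. Without induced replicate 2 the count was 5, with Cbs, Cdo1 and Cps1 added, and without uninduced replicate 1 or 2 it was 1, Ahcy. The late replicate numbers paired the samples: with the replicate as a block, Cdo1 also rose (2.45, adjusted p 0.0026), and Ftcd rose without inducers (3.89, adjusted p 0.014). Without induced replicate 3, the median was 0.19, and Cth became lower in induced cells (-2.61, adjusted p 0.04). Late induced cells were lower than fresh hepatocytes in 50 of 53 genes and higher in 0, against 26.6% and 24.7% of all genes, and Mat2a (0.73), Tdh (0.27) and Sdsl (0.23) did not pass. At an unadjusted p under 0.05, 1 gene was higher there, Mat2a. Over all genes, 48.1% of the calls in this comparison were higher, and 37.1% with the normexp background correction.

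The induction effect itself was smaller in late than in P1 cells for 24 of 53 genes and larger for 0, against 5.21% and 4.73% of all genes. At an unadjusted p under 0.05 the effect was also larger for 0 genes. The median difference, late effect minus P1 effect, was -1.55 on the log2 scale, against 0.01 over all genes. For 14 of the 24 genes the probe was well above background on all 6 late day 8 arrays, and for 3 (Arg1, Bhmt2 and Kynu) it was dim on all 6, so the late effect there was not measured. Leaving out single arrays gave 20 genes (without late induced replicate 1) to 31 (without late induced replicate 3). Of the 40 genes tested for both, the P1 change was above the late one in 36. The share over all genes was not counted.

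**Figure D2:**
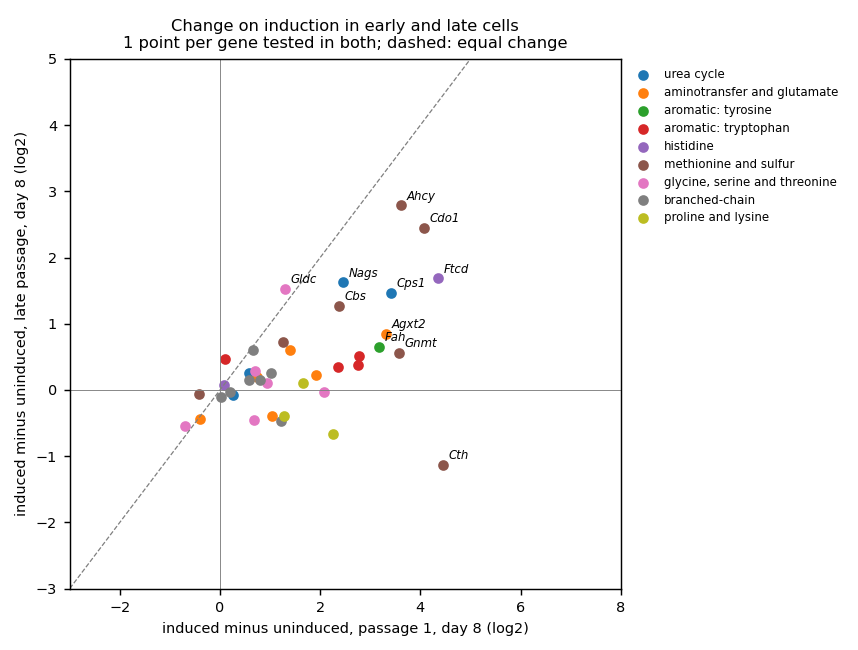
Log2 change on induction at P1 (x axis) and at late passage (y axis), 1 point for each of the 40 genes tested in both, coloured by branch, with the dashed line at equal change. Of the 40 points, 36 lie under the line, and Gldc is among the 4 on its other side.

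In the urea cycle, 6 of 6 genes tested fell on conversion to CLiPs, and induction at P1 raised Nags, Cps1 and Arg1, while Otc, Ass1 and Asl did not pass the threshold. Cps1, carbamoyl phosphate synthetase, the entry enzyme, read 6.19, 6.82 and 6.63 in fresh cells and -4.29, -4.01 and -3.22 at P1 day 0, where 1 of 3 arrays was well above background. It read -2.57, -2.21 and -1.97 in P1 uninduced and 1.23, 0.64 and 1.63 in P1 induced cells. None of these 4 groups overlapped another. The log2 change was -10.38 ± 0.32 (SE, n = 3 arrays per group) on conversion (adjusted p 3.1e-10), 1.59 ± 0.32 without inducers (adjusted p 0.0032) and 3.42 ± 0.32 on induction (adjusted p 1.1e-05). In late cells Cps1 was -6.05, -5.78 and -6.11 at day 0, all dim, then -4.50, -4.69 and -5.31 uninduced and -3.67, -4.20 and -2.22 induced. The late induction change was 1.47 ± 0.46 (adjusted p 0.061), and it was smaller than that at P1 (difference -1.95, adjusted p 0.027). That difference lost its call when any of 7 single arrays was left out, with adjusted p up to 0.076.

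Arg1, the liver arginase that releases urea, had the largest induction change of the cycle. It read 7.58, 8.02 and 7.89 in fresh cells, and it was dim at P1 day 0 (-6.06, -6.04 and -5.65) and in P1 uninduced cells (-5.36, -4.80 and -4.09). In P1 induced cells it read 2.24, 1.40 and 2.81, well above background on each array. It was at least 3370-fold lower at P1 day 0 than in fresh cells (adjusted p 1.1e-10) and at least 71.0-fold higher with induction than without (adjusted p 2.2e-07). P1 induced cells remained below fresh cells by a log2 change of -5.68 ± 0.37. In all late groups Arg1 was dim, with readings of -6.87, -7.09 and -6.91 at day 0, -6.76, -6.85 and -7.15 uninduced, and -4.90, -5.50 and -4.83 induced. The late induced readings lay above the late uninduced ones, but below the level at which the probe counts as measured. Arg2, the arginase of other tissues, read -5.37 to -5.21 in fresh cells, -4.05 to -3.65 at P1 day 0 and -5.42 to -4.78 in P1 induced cells, and was well above background on 1 array at P1 day 0, 1 at late day 0 and 1 of the late uninduced ones.

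Nags, which makes the activator of Cps1, read 2.52, 3.17 and 3.43 in fresh, -0.67, -0.98 and -0.55 at P1 day 0, -1.30, -1.30 and -1.12 in P1 uninduced and 1.31, 0.96 and 1.38 in P1 induced cells. It rose by 2.46 ± 0.22 on P1 induction (adjusted p 7.4e-06) and came within 1.82 of fresh cells (log2 change -1.82), the smallest gap in the cycle. At late day 0 it was dim (-6.92, -6.24 and -6.79), at least 16.6-fold below P1 day 0 (adjusted p 1.2e-07), beside at least 17.7-fold for Ftcd. Late uninduced cells read -4.97, -5.74 and -3.64, with 1 array above background, and late induced cells -3.73, -3.74 and -1.99. Nags was called higher in late uninduced cells than at day 0 (1.87, adjusted p 0.039), but leaving out any of 5 single arrays ended that call, and the late induction change was 1.63 (adjusted p 0.11).

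Otc, ornithine transcarbamylase, stayed far below its fresh level after induction. It read 6.89, 6.78 and 6.80 in fresh cells and was dim on all CLiP arrays. The P1 induced readings were -5.58, -5.96 and -5.78, against -6.37, -6.33 and -6.06 uninduced and -6.18, -6.24 and -5.93 at day 0. Late readings were -7.00, -7.22 and -7.00 at day 0, -6.93, -7.01 and -7.23 uninduced and -6.78, -6.95 and -6.83 induced. Otc was at least 1310-fold lower in P1 induced than in fresh cells (adjusted p 7.2e-13) and at least 2660-fold lower in late induced cells (adjusted p 1.8e-20).

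Ass1 and Asl, which make and split argininosuccinate, were measured on every array and held an intermediate level in CLiPs. Ass1 read 9.58, 9.84 and 9.82 in fresh, 2.17, 2.12 and 2.24 at P1 day 0, 2.49, 2.01 and 2.21 in P1 uninduced and 2.71, 2.16 and 2.61 in P1 induced cells. The 3 P1 groups overlapped, and the induction change was 0.26 ± 0.16 (adjusted p 0.23). In late cells Ass1 was -0.05, -0.11 and -0.53 at day 0, 0.04, -0.71 and -0.53 uninduced and -0.48, -0.23 and -0.74 induced, with overlap among the late groups. Late day 0 was below P1 day 0 by a log2 change of -2.40 ± 0.20 (adjusted p 2.3e-07). Asl read 5.98, 6.68 and 6.79 in fresh, 2.35, 2.31 and 2.48 at P1 day 0, 1.78, 1.66 and 1.98 uninduced and 2.30, 2.29 and 2.53 induced at P1. Its induction change was 0.57 ± 0.19 (adjusted p 0.033), under 2-fold. Late Asl read 2.60, 2.58 and 2.37 at day 0, 1.69, 1.67 and 1.79 uninduced and 1.79, 2.05 and 2.09 induced, close to the P1 readings.

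**Figure D3:**
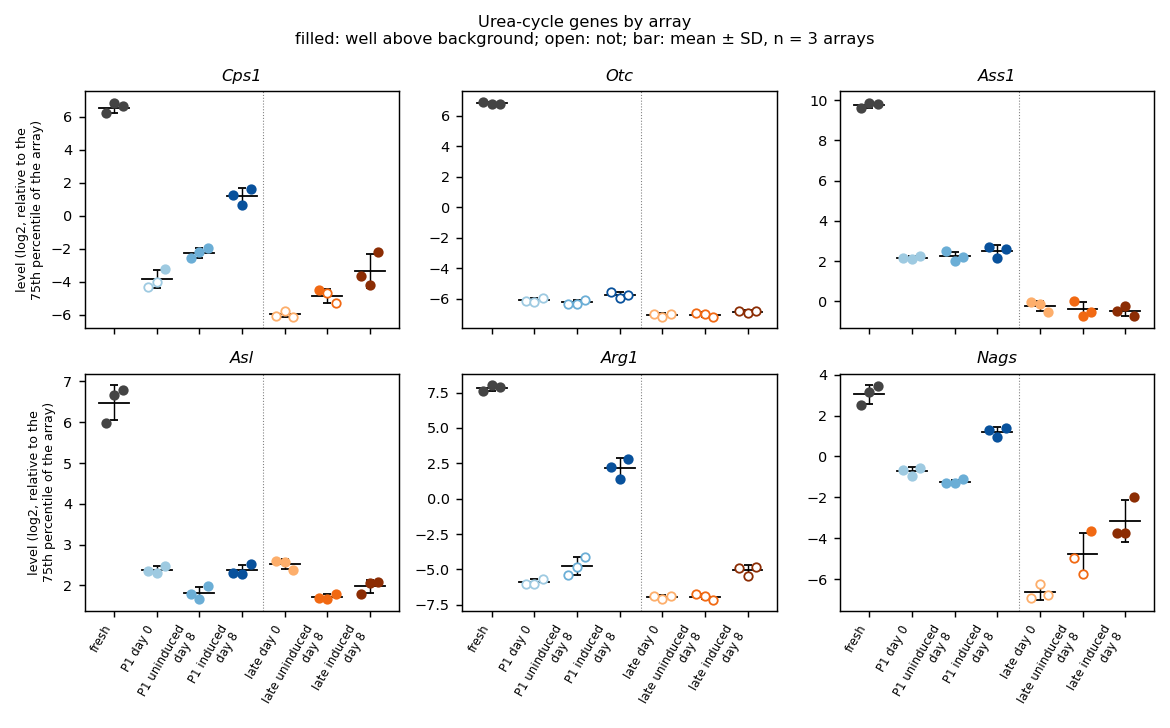
Levels (y axis, log2 relative to the 75th percentile of the array) of 6 urea-cycle genes on each array in the 7 groups (x axis). Filled points are well above background and open points are not, and bars give the mean and SD of 3 arrays. Cps1, Arg1 and Nags step up in P1 induced cells, while Otc is open in all CLiP groups and Ass1 stays between 2.01 and 2.71 at P1.

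Among aminotransferases, 6 of 7 genes fell on conversion and 5 of 7 rose on P1 induction. Agxt, the peroxisomal alanine-glyoxylate aminotransferase, read 8.01, 8.38 and 8.27 in fresh cells and -5.38, -6.20 and -5.97 at P1 day 0, where it was dim, at least 4410-fold lower (adjusted p 2e-11). It rose to -4.52, -3.51 and -3.67 without inducers and to -0.33, -0.78 and -0.18 with them (induction change 3.47 ± 0.29, adjusted p 4.8e-06). In late cells it was dim on every array but the induced replicate 3: -7.00, -6.87 and -7.01 at day 0, -6.93, -7.00 and -7.22 uninduced, and -6.67, -6.95 and -3.49 induced. Got1 had the smallest change that passed on P1 induction (1.03 ± 0.27, adjusted p 0.01). It fell below 2-fold when either of 2 arrays was left out. Glud1 read 7.65 to 7.98 in fresh cells, 6.84 to 7.34 at P1 day 0 and 5.97 to 6.05 in P1 induced cells. Its level was thus lower with induction than at day 0, and below fresh by a log2 change of -1.78 ± 0.14 (adjusted p 6.3e-07). Another Glud1 probe gave -0.77 there, under 2-fold, and -0.94 in place of -1.20 for late induced against fresh cells. The late call was also lost with quantile normalization (-0.50) and the normexp background correction (-0.99).

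The alanine aminotransferases Gpt and Gpt2 took different courses in late cells. Gpt, the cytosolic enzyme, read 7.86, 8.24 and 7.96 in fresh, 1.28, 1.35 and 1.74 at P1 day 0, 0.90, 1.21 and 1.53 in P1 uninduced and 3.02, 2.83 and 3.52 in P1 induced cells. Its P1 induction change was 1.91 ± 0.22 (adjusted p 4.3e-05), while the other Gpt probe gave 0.95. Late readings were 1.27, 1.47 and 1.51 at day 0, 0.91, 0.92 and 0.97 uninduced and 1.10, 1.16 and 1.21 induced, a change of 0.22 ± 0.09 (adjusted p 0.11). The difference between the late and P1 effects was -1.69 (adjusted p 0.00021), and -0.77 by the other probe.

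Gpt2, the mitochondrial enzyme, read 4.57, 5.18 and 5.15 in fresh, 2.34, 2.29 and 2.31 at P1 day 0, 2.21, 2.70 and 2.55 in P1 uninduced and 3.66, 3.96 and 4.01 in P1 induced cells. It rose by 1.39 ± 0.18 on P1 induction (adjusted p 0.00012). In late cells it read 0.41, 0.90 and 0.76 at day 0, 2.93, 3.37 and 3.40 uninduced and 3.77, 3.84 and 3.91 induced. Gpt2 thus had the highest change among the called genes in 8 late days without inducers, 2.55 ± 0.16 (adjusted p 1.9e-05), and induction added 0.60 (adjusted p 0.038), under 2-fold. Late and P1 induced readings of Gpt2 overlapped.

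**Figure D4:**
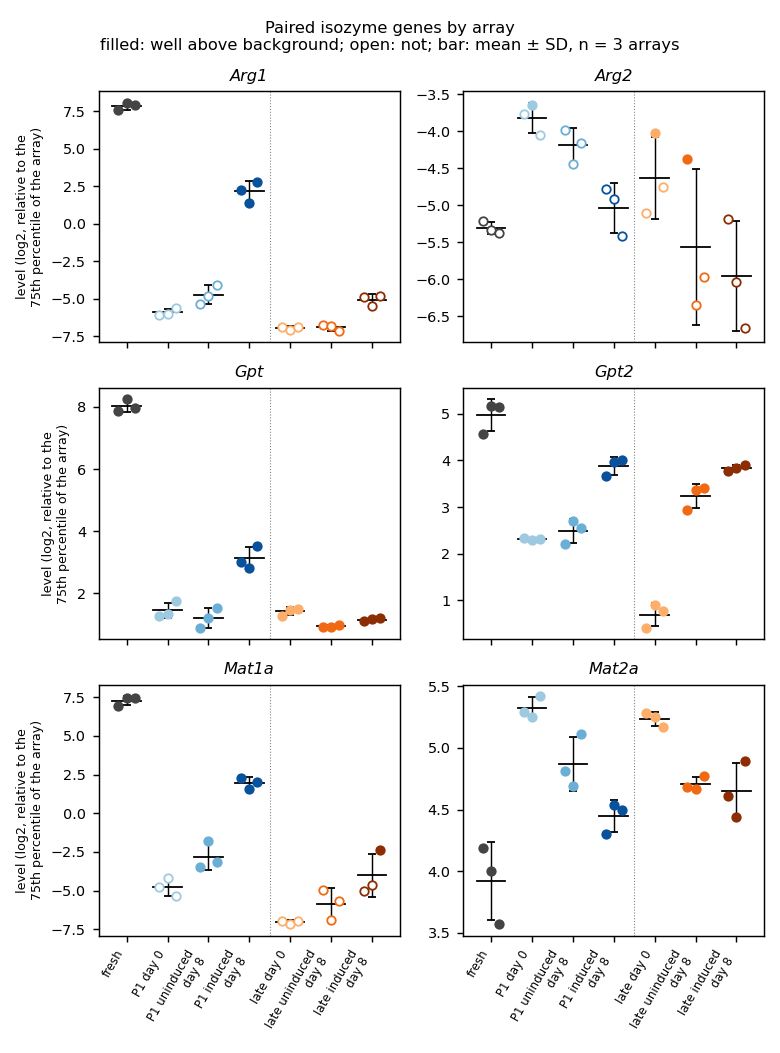
Levels (y axis, log2 relative to the 75th percentile of the array) of 3 isozyme pairs on each array in the 7 groups (x axis), with filled points well above background, open points not, and bars for the mean and SD of 3 arrays. Mat1a is lower in all CLiP groups than in fresh cells and Mat2a is higher, Arg2 stays mostly open in all groups, and late Gpt2 rises from day 0 to day 8 while late Gpt does not.

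All 3 tyrosine genes fell on conversion and rose on P1 induction. Hpd, 4-hydroxyphenylpyruvate dioxygenase, read 7.37, 8.15 and 7.81 in fresh cells and was dim at P1 day 0 (-6.00, -6.04 and -5.78), at least 3240-fold lower (adjusted p 4.4e-09). P1 uninduced cells read -3.27, -6.12 and -5.68, with 1 array above background, and P1 induced cells -2.44, -3.08 and -2.16. The induction change was 2.47 ± 0.60 (adjusted p 0.0067). Late readings were -2.82, -7.13 and -6.93 at day 0, -6.74, -5.59 and -7.15 uninduced and -6.64, -5.29 and -6.74 induced, dim except on a single day 0 array. In late induced cells Hpd was at least 5140-fold lower than in fresh cells (adjusted p 3.5e-10).

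Hgd, the next enzyme, was at least 813-fold lower at P1 day 0 and at least 15.5-fold higher with P1 induction than without (adjusted p 1.8e-07), the highest change of the branch. Fah, fumarylacetoacetase and the last step, kept a measurable level throughout. It read 6.36, 6.80 and 6.56 in fresh, 0.99, 0.91 and 1.20 at P1 day 0, 0.42, 0.31 and 0.55 in P1 uninduced and 3.52, 3.38 and 3.92 in P1 induced cells. The change on conversion was -5.54 ± 0.16 and on induction 3.18 ± 0.16 (adjusted p 1.6e-07). Late Fah read 0.61, 0.40 and 0.31 at day 0, -0.24, -0.39 and -0.16 uninduced and 0.30, -0.02 and 0.87 induced, a change of 0.65 ± 0.21 (adjusted p 0.066). The late effect was smaller by a difference of -2.53 (adjusted p 1.2e-05).

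All 6 tryptophan genes fell on conversion, and on P1 induction all but Afmid, the kynurenine formamidase, were called higher. For Acmsd (2.56) the size was not measured. It was dim without induction and well above background on 1 of 3 induced arrays, so it entered the branch median as fitted. Tdo2, which opens the tryptophan ring and is a classic glucocorticoid-responsive liver gene, read 7.40, 7.35 and 7.26 in fresh and -3.44, -2.83 and -3.63 at P1 day 0. It read -2.94, -2.88 and -3.31 in P1 uninduced and 0.07, -0.38 and -0.48 in P1 induced cells, and the induction change was 2.78 ± 0.21 (adjusted p 2.8e-06). Late readings lay within a narrow range, at -3.72, -3.51 and -3.70 at day 0, -3.98, -3.58 and -3.58 uninduced and -3.39, -3.53 and -2.69 induced (induction change 0.51, adjusted p 0.15). Kynu, kynureninase, was dim without induction and at least 2.03-fold higher with it (adjusted p 8.9e-05), and Kmo, kynurenine 3-monooxygenase, rose by 2.35 ± 0.17 (adjusted p 1.7e-06). The change of Afmid on P1 induction was 0.10 ± 0.23 (adjusted p 0.75). The lower late effect of Haao (difference -2.37) rests on 1 probe. With the mean of its probes the difference was -0.01, the other probe being dim on some of these arrays.

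In the histidine branch, Uroc1, urocanase, was at least 1480-fold lower at P1 day 0 than in fresh cells and rose by 5.27 ± 0.25 on P1 induction (adjusted p 1.1e-07). Ftcd, which passes the one-carbon unit of histidine to folate, rose by 4.36 ± 0.33 (adjusted p 2.3e-06), and Amdhd1, between them, had a change of 0.08 ± 0.12 (adjusted p 0.63). Ftcd varied widely among late day 8 arrays, at -1.16, -4.60 and 0.74 uninduced and -0.36, -2.80 and 3.22 induced. Within each replicate number the induced array was the higher.

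Of 10 methionine and sulfur genes, 9 fell on conversion and 9 rose on P1 induction. Mat1a, the liver methionine adenosyltransferase, read 6.95, 7.47 and 7.44 in fresh cells and was dim at P1 day 0 (-4.76, -4.22 and -5.38), at least 2310-fold lower. It read -3.47, -1.80 and -3.17 in P1 uninduced cells, at least 2.11-fold above day 0 (adjusted p 0.0046), and 2.29, 1.58 and 2.02 with induction, a change of 4.77 ± 0.42 (adjusted p 7.3e-06). In late cells it was dim on every array but the induced replicate 3, at -6.95, -7.18 and -6.99 at day 0, -4.96, -6.93 and -5.65 uninduced and -5.01, -4.66 and -2.41 induced.

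Mat2a moved the other way on conversion. It read 4.19, 4.0 and 3.57 in fresh cells, 5.29, 5.25 and 5.42 at P1 day 0, 4.81, 4.69 and 5.11 uninduced and 4.30, 4.54 and 4.50 induced at P1. All CLiP readings of Mat2a lay above the fresh ones. It rose by 1.40 ± 0.16 on conversion (adjusted p 1.4e-05), but its other probes gave 0.19 and 1.20, and the mean of its probes 0.93, under 2-fold. Late readings were 5.28, 5.25 and 5.17 at day 0, 4.68, 4.67 and 4.77 uninduced and 4.61, 4.44 and 4.89 induced. The induction change was -0.42 ± 0.16 at P1 (adjusted p 0.058) and -0.06 in late cells (adjusted p 0.77).

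Bhmt, betaine-homocysteine methyltransferase, had the highest P1 induction change among members measured in both groups. It read 9.49, 9.76 and 9.56 in fresh, -2.63, -4.12 and -2.46 at P1 day 0, -2.18, -0.39 and -1.24 in P1 uninduced and 6.13, 5.99 and 7.26 in P1 induced cells. The induction change was 7.73 ± 0.53 (adjusted p 1.2e-06), and induced cells stayed below fresh by a log2 change of -3.15 ± 0.53. Late readings were -7.05, -7.26 and -7.03 at day 0, all dim, -6.98, -7.00 and -2.79 uninduced and -4.48, -6.95 and -1.06 induced. Late Bhmt thus stood above background on 1 uninduced and 2 induced arrays. The difference of the effects was -6.30 ± 1.67 (adjusted p 0.014).

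Bhmt2, its neighbour, which uses S-methylmethionine, was called higher in P1 uninduced cells than at day 0, mostly on dim readings. It read 6.00, 6.49 and 6.34 in fresh, -6.08, -6.12 and -5.69 at P1 day 0, -4.14, -3.51 and -4.08 in P1 uninduced and 2.18, 1.92 and 2.88 in P1 induced cells. Before induction 1 of the 6 P1 arrays was above background. The induction change was 6.24 ± 0.26 (adjusted p 4.9e-08), and on all late arrays Bhmt2 was dim.

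Ahcy, which hydrolyses S-adenosylhomocysteine, rose on induction at both passages and had the highest change of late induction. It read 3.97, 4.09 and 4.12 in fresh, 0.35, 0.06 and 0.21 at P1 day 0, -0.83, -0.90 and -0.76 in P1 uninduced and 2.63, 2.81 and 2.90 in P1 induced cells. In late cells it read -0.07, 0.11 and 0.09 at day 0, -0.61, -0.28 and -0.45 uninduced and 2.14, 2.39 and 2.49 induced. The changes on induction were 3.61 ± 0.11 at P1 (adjusted p 1.1e-08) and 2.79 ± 0.13 in late cells (adjusted p 4.1e-05). The difference between them was -0.82 (adjusted p 0.0019), under 2-fold.

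Cbs, cystathionine beta-synthase, read 8.16, 8.50 and 8.56 in fresh, 4.16, 4.26 and 4.60 at P1 day 0, 3.13, 3.61 and 3.98 in P1 uninduced and 5.87, 5.68 and 6.29 in P1 induced cells. It rose by 2.37 ± 0.23 on P1 induction (adjusted p 1.4e-05). Late readings were 1.64, 2.09 and 2.31 at day 0, 2.27, 1.69 and 2.14 uninduced and 3.26, 1.98 and 4.68 induced (change 1.27 ± 0.58, adjusted p 0.17). The late induced readings spread more widely than any P1 group. Cth, the next enzyme to cysteine, rose by 4.46 ± 0.39 at P1, and its late induced readings were -1.61, -4.18 and 1.54. Csad, which leads to taurine, had the lowest P1 induction change that passed in the branch, 1.26 ± 0.32 (adjusted p 0.0085), and its late change was 0.73 (adjusted p 0.01), under 2-fold.

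Of 8 glycine, serine and threonine genes, 7 fell on conversion and 4 rose on P1 induction. Dmgdh and Sardh, which strip methyl groups from dimethylglycine and sarcosine, rose on P1 induction. Dmgdh read 6.61, 6.87 and 6.68 in fresh cells, was dim at P1 day 0 (-5.12, -6.06 and -5.82) and in P1 uninduced cells (-5.03, -5.88 and -5.99), and read 0.15, -0.05 and 0.90 in P1 induced cells. It was at least 20.2-fold higher with induction than without (adjusted p 2.6e-07). In late cells a single uninduced array was above background, with readings of -6.92, -7.14 and -6.94 at day 0, -3.60, -6.90 and -7.17 uninduced and -6.65, -5.48 and -6.77 induced. The late effect was smaller than the P1 effect by limma (adjusted p 0.00019), but with most of these readings dim the size of the difference was not measured. Sardh rose by 2.08 ± 0.21 on P1 induction (adjusted p 2.1e-05) and, in late cells, by 2.06 ± 0.12 over 8 days without inducers (adjusted p 1.3e-05), while late induction gave -0.03.

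Gldc, the decarboxylase of the glycine cleavage system, read 4.87, 5.43 and 5.84 in fresh, 4.26, 4.03 and 4.68 at P1 day 0, 2.87, 2.94 and 3.35 in P1 uninduced and 4.39, 4.27 and 4.35 in P1 induced cells. Its other probe differed in sign against fresh cells, at 0.18 in place of -1.04 for P1 induced and 0.24 in place of -1.06 for late induced cells. Its change on conversion was -1.06 ± 0.24 (adjusted p 0.002), a call that ended when either of 2 arrays was left out, and the other probe gave -0.17. Induction changed it by 1.29 ± 0.24 at P1 (adjusted p 0.0014) and by 1.53 ± 0.33 in late cells (adjusted p 0.016). Late readings were 2.08, 3.08 and 2.47 at day 0, 2.60, 2.37 and 3.42 uninduced and 4.43, 4.03 and 4.52 induced, and late induced and P1 induced readings overlapped. The late call ended without any of 3 single arrays, with adjusted p of 0.052 to 0.054.

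Tdh, threonine dehydrogenase, was dim in fresh cells (-3.84, -4.81 and -5.33), at P1 day 0 (-3.93, -4.63 and -5.08) and in P1 uninduced cells (-4.79, -4.63 and -5.99). It was well above background on all 3 P1 induced arrays (-2.45, -2.19 and -1.72), at least 3.68-fold higher than without induction (adjusted p 0.00035) and at least 2.25-fold higher than in fresh cells (adjusted p 0.0005). The latter call was lost with the normexp background correction (0.55). Tdh passed the filter for testing only through the P1 induced group, so its adjusted p-values against that group are not independent of this selection. The levels remained low, below the 75th percentile on each array. Late readings were -4.67, -4.25 and -4.27 at day 0, -4.53, -4.53 and -4.47 uninduced and -4.13, -4.69 and -4.33 induced, with no separation between groups.

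Shmt1, the cytosolic serine hydroxymethyltransferase, had the lowest change over 8 days without inducers at both passages. It read 2.75, 3.41 and 3.20 in fresh, 0.41, 0.29 and 0.68 at P1 day 0, -1.02, -1.71 and -0.74 in P1 uninduced and -1.68, -2.24 and -1.65 in P1 induced cells. Late readings were 0.67, 0.70 and 0.39 at day 0, -1.89, -1.22 and -1.60 uninduced and -2.31, -2.28 and -1.74 induced. The changes without inducers were -1.61 ± 0.27 at P1 (adjusted p 0.001) and -2.16 ± 0.21 in late cells (adjusted p 0.00013). At P1 the other probe gave -0.66. The summed level of the cell-cycle genes fell between the same groups, from 86.4 to 101 to 5.89 to 8.86 at P1 and from 105 to 113 to 10.7 to 14.2 in late cells, and its part in this change was not tested.

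**Figure D5:**
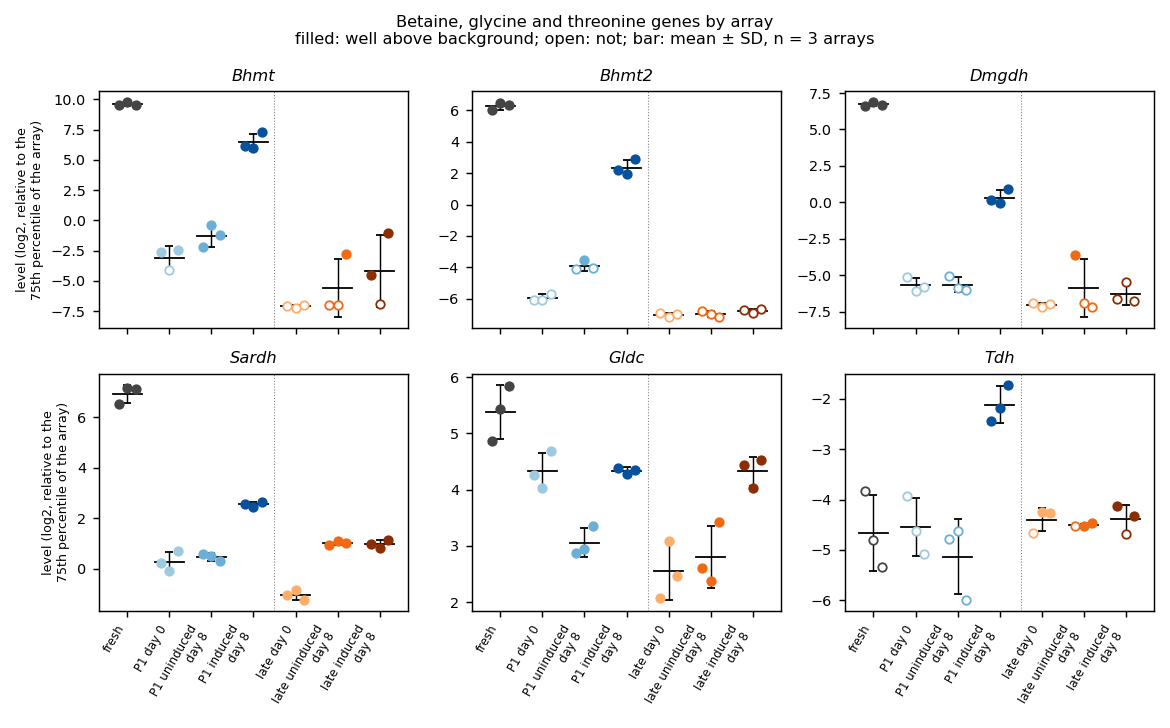
Levels (y axis, log2 relative to the 75th percentile of the array) of Bhmt, Bhmt2, Dmgdh, Sardh, Gldc and Tdh on each array in the 7 groups (x axis), with filled points well above background, open points not, and bars for the mean and SD of 3 arrays. Bhmt, Bhmt2 and Dmgdh step up in P1 induced cells and are mostly open in late cells, and Gldc reaches similar levels in P1 and late induced cells.

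The branched-chain branch had the smallest median change on P1 induction (0.66). All 7 genes fell on conversion, by log2 changes from -4.73 for Bckdha to -2.27 for Mccc2. The other Mccc1 probe gave -0.43 against -2.31, and for late induced against fresh cells the other Hibch probe gave 0.08 against -2.98. All 7 were well above background on every array. Bckdha, a subunit of the branched-chain keto acid dehydrogenase, read 5.90, 6.10 and 5.87 in fresh, 1.13, 1.12 and 1.42 at P1 day 0, 1.71, 1.77 and 1.63 in P1 uninduced and 2.50, 2.43 and 2.54 in P1 induced cells. Its induction change of 0.79 ± 0.11 (adjusted p 0.00016) was under 2-fold, although the groups did not overlap. Late Bckdha read 1.36, 1.46 and 1.65 at day 0, 2.06, 2.12 and 2.11 uninduced and 2.18, 2.40 and 2.16 induced.

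Bckdhb, the partner subunit, read 6.03, 5.97 and 5.92 in fresh, 2.09, 2.17 and 2.33 at P1 day 0, 1.84, 1.94 and 2.07 in P1 uninduced and 3.25, 3.10 and 3.16 in P1 induced cells. It rose by 1.22 ± 0.10 on P1 induction (adjusted p 3.5e-06), and its late readings were 2.52, 2.02 and 1.99 at day 0, 1.80, 2.00 and 2.23 uninduced and 1.54, 1.08 and 2.00 induced. The late change was -0.47 ± 0.25 (adjusted p 0.23), and the difference of the effects was -1.69 (adjusted p 0.0003). Hibch, in valine breakdown, was the other gene that rose on P1 induction, by 1.01 ± 0.08 (adjusted p 3.5e-06), and it fell below 2-fold when either of 2 arrays was left out.

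Ivd, isovaleryl-CoA dehydrogenase of leucine breakdown, read 5.07, 5.35 and 5.24 in fresh, 2.29, 2.16 and 2.63 at P1 day 0, 2.05, 2.00 and 2.32 in P1 uninduced and 2.67, 2.75 and 2.93 in P1 induced cells. In late cells it read 2.14, 2.41 and 2.16 at day 0, 1.85, 1.90 and 1.94 uninduced and 2.42, 2.57 and 2.53 induced. The induction changes were 0.66 ± 0.15 at P1 (adjusted p 0.0038) and 0.61 ± 0.10 in late cells (adjusted p 0.0046), both under 2-fold. Their difference was -0.05 ± 0.18 (adjusted p 0.89).

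In the proline and lysine branch, Aass, the entry enzyme of lysine breakdown, had the lowest change on conversion (-8.69 ± 0.20) and the highest on P1 induction (2.26 ± 0.20, adjusted p 7.2e-06). Prodh, proline dehydrogenase, rose by 1.66 ± 0.15 and Prodh2, hydroxyproline dehydrogenase, by 1.28 ± 0.30 (adjusted p 0.0049). The mean of all Prodh probes gave 0.92 in place of 1.66, and -0.74 in place of -1.55 for the difference between late and P1 effects, both under 2-fold. In late cells the induction changes of the branch lay between -0.66 and 0.11.

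A wider list of 95 further amino acid genes, of which 94 were on the array, held both breakdown and synthesis. On conversion 67 of 89 tested fell and 13 rose, against 25.2% and 25.4% of all genes. On P1 induction 35 rose and 3 fell, against 9.68% and 9.02%. On late induction 4 of 84 rose and 2 fell, near the shares of all genes, 2.94% and 3.06%. Of the genes named from the list, these fell on conversion: Tat, tyrosine aminotransferase, by a log2 change of -8.02, Gstz1, maleylacetoacetate isomerase, by -5.61, Hal, histidase, by -10.53, and Sds, serine dehydratase, at least 992-fold. Tat, Gstz1 and Sds rose on P1 induction (3.00, 2.73 and at least 2.35-fold), while Hal had a change of 0.31 (adjusted p 0.27). The late induction change was 0.20 for Tat (adjusted p 0.11) and 0.27 for Gstz1 (adjusted p 0.25).

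Genes of glutamine and serine use moved in both directions. Gls2, the liver glutaminase, fell on conversion (-8.25). Phgdh and Psat1, the first enzymes of serine synthesis, rose on conversion, at least 910-fold and by 9.57, and remained above fresh cells after induction by at least 446-fold and 10.01. Glul, glutamine synthetase, fell on conversion (-4.72) and rose on induction at P1 (1.42, adjusted p 6.4e-05) and in late cells (2.07, adjusted p 0.00018). Shmt2, the mitochondrial serine hydroxymethyltransferase, rose by 2.21 on P1 induction and had a change of -0.59 in late cells (adjusted p 0.11). Of the transaminases of branched-chain amino acids, Bcat2 fell on conversion (-2.71) and had an induction change of -0.16 at P1 (adjusted p 0.39). Bcat1 rose on P1 induction (3.73, adjusted p 0.0073), with 1 of 3 uninduced and 3 of 3 induced arrays well above background.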

How the data were processed

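Total RNA was labelled with Cy3 on one-colour Agilent arrays, 1 sample per array. The deposited scanner files give an intensity per probe, background-subtracted by Feature Extraction 11.5.1.1 (fresh and P1) or 10.7.3.1 (late), per the file headers. The log2 of this processed signal minus the array's 75th percentile was analysed, without control spots. The authors also deposited log2 tables, 1 of which equals these values up to a constant per array.

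Genes are as named in the files; of several probes the one with the highest mean over all arrays stood for the gene. limma 3.58.1 (R 4.3.3) was fitted to the fresh and P1 arrays, to the late arrays, or to all 21 for comparisons across sets, with Benjamini-Hochberg adjustment over all tested genes and no covariate. Scripts were tested on simulated data. The members and gene lists were chosen with earlier results of these data known. Values on every array are given for 21 listed genes and for the called member with the highest or lowest change in each comparison, and branch extremes are named. Late replicate numbers paired the samples: per the labels replicate 3 was another passage, and all 9 same-number pairs correlated at 0.25 to 0.53 (deviations from group means). The late comparisons were therefore also fitted with the replicate as a block. Blocked values are given for Cdo1, Ftcd and the counts, and the other late p-values come from the fit without this pairing. One fresh array carries a P1 passage label and was grouped by its title. Alternatives covered normalization, background correction, filters, probes, blocks and each array left out; within-slide values were added after the data had been seen. The number of arrays limits the precision. Some genes of the wider list are not reported here.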

Additional observations from a re-analysis of the deposited data

Results flagged for a closer look

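The 24 values below are differences of the induction effect, late minus P1, on the log2 scale, and each was singled out because limma's test of the difference itself passed the threshold. The values were negative in all 24. In methionine and sulfur metabolism they were -6.30 for Bhmt, -6.02 for Bhmt2, -5.59 for Cth, -3.02 for Gnmt and -2.96 for Mat1a. In the glycine branch they were -6.38 for Dmgdh, -2.89 for Tdh, -2.11 for Sardh and -1.14 for Gcsh. The urea-cycle genes were Arg1 at -5.06 and Cps1 at -1.95.

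In histidine and aromatic breakdown the differences were -4.42 for Uroc1, -2.53 for Fah, -2.40 for Kynu, -2.37 for Haao, -2.27 for Tdo2, -2.08 for Hgd and -2.01 for Kmo. The aminotransferases were Agxt2 at -2.46, Gpt at -1.69 and Got1 at -1.42. The remaining genes were Aass at -2.92, Bckdhb at -1.69 and Prodh at -1.55. For Arg1, Bhmt2 and Kynu all 6 late day 8 readings were not well above background, so the late effect behind these differences was not measured. Tdh was tested only because its P1 induced arrays were all well above background. Arg1, Dmgdh, Hgd, Kynu and Tdh were dim on all P1 uninduced arrays, so their P1 effects are bounds. The differences given for them are fitted values, not measured sizes. The same holds in part for Bhmt, Bhmt2, Cps1, Mat1a and Uroc1, which were measured on only some arrays of at least 1 day 8 group or on none. With the mean of all probes, Prodh's difference was -0.74 and Haao's -0.01, and neither passed. The calls of Cps1 and Mat1a ended without certain single arrays, and that of Gcsh without late induced replicate 1 (-0.98). The call of Hgd ended in most refits that left out 1 array, and without the filter on dim probes (limma, adjusted p 0.073). With the normexp background correction Kynu's difference was -0.79 and did not pass. All late arrays came from another scanner than the P1 arrays. Each induction effect was taken within its own set, and the part of the scanner in these differences was not tested. In the late set, uninduced cells shared slide 6 with 2 of the 3 induced arrays, and induced replicate 3 was on slide 7.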

How the results depend on the processing

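No refitted alternative reversed a called direction, although single other probes had the opposite sign for Gldc and Hibch against fresh cells. Of all gene-level results under the alternatives, 10525 kept their side of the threshold, 166 lost the call and 57 gained one. Those kept include genes called in neither fit, and refits without an array of a group not compared, so their number does not measure how stable the calls were. The medians against fresh hepatocytes moved to -5.09, -3.39 and -5.64 (P1 day 0, P1 induced, late induced) under quantile normalization and to -5.03, -3.44 and -5.36 under normexp. The median of late against P1 day 0 moved to -0.27, -0.49 and, with the slide as a block, -0.41. Quantile normalization called 1 gene, Mat2a, higher in late induced than fresh cells. With normexp the P1 induction median was 1.33, 1 gene rose in P1 uninduced cells, 0 were higher in P1 induced than fresh cells, and 13 were lower at late than at P1 day 0. Without a filter on dim probes, 2 genes rose on conversion, 4 on late induction, and the median of P1 induced against fresh was -3.71. With only genes above background on all arrays, the medians were -4.09 (conversion), 1.24 (P1 induction), -3.02 (P1 induced against fresh), -0.78 (difference of effects), -0.16 (late against P1 day 0) and -4.44 (late induced against fresh). The counts were then 0 higher in P1 uninduced cells, 22 higher on P1 induction, 0 higher in P1 induced than fresh cells, 13 smaller late effects, 10 lower at late than at P1 day 0, and 33 lower in late induced than fresh cells; fewer genes were tested there. The mean of all probes gave 0 genes higher on conversion, 4 on late induction, and medians of 1.55 (P1 induction) and -3.47 (P1 induced against fresh). The slide as a block gave 1 gene lower on late induction and 14 lower at late than at P1 day 0, and 5 genes rose on late induction in the authors' deposited log2 values. Within slide 5, with 1 array per group, 0 genes rose and 1 fell in P1 uninduced cells. Leaving out single arrays gave medians of -4.19 to -3.75 for P1 induced and -6.44 to -5.78 for late induced against fresh, 1 to 2 genes lower in late uninduced cells, and 1 to 5 higher and 0 to 1 lower on late induction. With the replicate block, 7 genes rose in late uninduced cells, 3 rose on late induction, 25 late effects were smaller and 22 genes were lower at late than at P1 day 0, and it ended no call. Among fresh and P1 arrays, 7 of 18 same-number pairs correlated over 0.1 (median 0.04), against 1 of 36 pairs of different number (median -0.03). Whether these numbers pair some of the samples was thus not settled. Except where stated above, the cause of these shifts was not tested. Probes near background limit the low readings of late cells.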
